A study of Mus musculus with 6 samples.

Results

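The cathepsins are the proteases of the lysosome, and 10 of their genes were followed here in MPs sorted from regenerating mouse muscle: Ctsa, Ctsb, Ctsc, Ctsd, Ctse, Ctsh, Ctsk, Ctsl, Ctss and Ctsz. They were picked by name from the 13008 genes of the deposited expression table, and all 10 were found once in it. The choice used no rule on their values, but earlier results of these data were known. The table comes from RNA-seq of GFP+ MPs that were F4/80+ and Ly6C-Low, isolated by FACS 5 days after injection of cardiotoxin, a snake toxin that kills muscle fibers, into leg muscles. There were 3 Control and 3 Cripto KO samples, all from C57BL/6J mice given as 3 months old and male. In Cripto KO mice (Tg:LysMCre::Cripto-/- in the sample labels) a floxed Cripto gene is removed by Cre recombinase made from the lysozyme M promoter, which is active in the whole myeloid lineage and not in MPs alone. The study's methods describe both groups as carrying Tg:LysMCre and the R26 mTmG reporter, which turns GFP on where Cre has acted, with Cripto fl/fl as the difference, whereas the labels name the Control genotype wild type. Cripto is a membrane-anchored co-receptor of the TGFβ family, and the comparison asks what its loss does to the transcriptome of these MPs. Nothing in the labels says whether a sample is 1 mouse or a pool, so the p-values measure the spread between these samples.

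Cathepsins are made as inactive precursors, tagged with mannose 6-phosphate or bound by sortilin in the Golgi, and activated in acid endosomes and lysosomes. They differ in the residue that cuts the peptide bond: Ctsd and Ctse are aspartic proteases, Ctsb, Ctsc, Ctsh, Ctsk, Ctsl, Ctss and Ctsz are cysteine proteases, and Ctsa is a serine carboxypeptidase. In MPs they break down engulfed debris and prepare antigen for MHC class II, and some are also secreted and cut extracellular matrix. Transcription of many of them is under the control of TFEB and related factors, which bind E-box sequences of the letters CACGTG near the start sites of lysosomal genes.

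Promoter sequences are shown for the 3 cathepsins whose windows hold that E-box. Among them Ctsa and Ctsd had like patterns over the 6 samples (Pearson's r of log2 values 0.96). Ctsl ran the other way (r = -0.56 with Ctsd and -0.48 with Ctsa). Such likeness was not confined to genes with the E-box. Ctsz, whose window holds none, had r = 0.83 with Ctsd and 0.70 with Ctsa. Ctsb, whose promoter was not at hand, had r = 0.94 with Ctsd. Whether the E-box goes with these patterns was not tested. RefSeq promoters (GRCm38.p6, 250 bases before to 50 after the start of transcription) were at hand for 7 of the 10 genes, with 8 start sites in all, and Ctsb, Ctse and Ctsh had no entry. They are written 5′ to 3′ on the strand of the gene, with CACGTG in capitals. The windows are chr2:164833523-164833822, plus strand, for the second start site of Ctsa, chr7:142387778-142388077, minus strand, for Ctsd and chr13:64370471-64370770, minus strand, for Ctsl.
Ctsa, second start site: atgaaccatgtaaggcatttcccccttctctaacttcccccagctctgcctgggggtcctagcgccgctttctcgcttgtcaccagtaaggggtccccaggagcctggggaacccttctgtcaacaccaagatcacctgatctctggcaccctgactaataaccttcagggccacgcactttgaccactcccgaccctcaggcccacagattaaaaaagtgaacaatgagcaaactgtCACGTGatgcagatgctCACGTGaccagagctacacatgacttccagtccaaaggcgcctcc
Ctsd: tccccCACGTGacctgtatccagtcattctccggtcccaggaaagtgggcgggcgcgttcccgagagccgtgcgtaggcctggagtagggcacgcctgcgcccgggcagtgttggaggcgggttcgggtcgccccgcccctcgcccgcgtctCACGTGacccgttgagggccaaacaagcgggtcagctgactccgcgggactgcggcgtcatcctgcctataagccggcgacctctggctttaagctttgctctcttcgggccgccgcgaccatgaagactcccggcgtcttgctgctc
Ctsl: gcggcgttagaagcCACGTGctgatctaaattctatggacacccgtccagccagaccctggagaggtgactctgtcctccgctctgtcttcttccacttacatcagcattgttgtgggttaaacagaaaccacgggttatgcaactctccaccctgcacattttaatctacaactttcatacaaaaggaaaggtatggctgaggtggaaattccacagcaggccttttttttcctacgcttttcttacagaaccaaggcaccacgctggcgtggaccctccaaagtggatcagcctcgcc
The Ctsa window holds 2 E-boxes, at -12 and 6 from the start site. In the Ctsd window there are 2, at -245 and -98, and in the Ctsl window 1, at -236. CACGTG reads the same on both strands and was present in 7.15% of all 32851 RefSeq promoter windows of this length. The longer form TCACGTG, which overlaps it, occurred in 3.77% of windows and in those of Ctsa and Ctsd, and not in that of Ctsl. GAGGAAGT, a form of the site of the myeloid factor PU.1 searched on both strands, occurred in 3.2% of windows, and among the cathepsins in that of Ctsc, at -151, and that of Ctss, at -2. TGANTCA, the AP-1 site, was in 7.81% of all windows and in none of the 8 cathepsin windows. The first start site of Ctsa and the windows of Ctsk and Ctsz held none of these letters. A match of letters is a description of the window, and binding was not measured here.

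The deposited values are normalized read counts, close to reads per 1000000 reads of a scaled library, and the reads behind them could be recovered. Recovered reads per sample lay between 12688968 and 15659847, and 3 reads corresponded to a value between 0.222 and 0.286. Some macrophage genes were high in every sample: Csf1r, the receptor of CSF1, lay between 1566 and 1815. Adgre1, which encodes F4/80, lay between 1065 and 1384, and Cd68 between 1420 and 1734. Others of the macrophage list were lower. Cx3cr1 lay between 59.6 and 123, Lyz2 was low in all samples but 1 (given below), and a second row named Itgam had a mean under 1. Lyz2 is the gene of lysozyme M, whose promoter drives the Cre described above. Whether the Cre allele bears on the Lyz2 values was not tested. Lists of other cells held genes at both ends. The neutrophil list (8 of 10 genes measured) summed to 107 to 115 in Control and 101 to 111 in Cripto KO, mostly Csf3r, with S100a9, Cxcr2, Camp, Mpo and Retnlg at means under 1. The B cell list (4 of 6 measured) summed to 78.6 to 111 and 89.7 to 114, mostly Ighm, with Cd79a under 1. Endothelial genes (8 of 8) summed to 56.8 to 66.0 and 57.6 to 64.9, dendritic cell genes (6 of 7) to 8.08 to 12.4 and 9.02 to 10.5, and Cd4, the 1 gene measured of 8 of T and NK cells, lay at 74.6 to 95.1 and 62.3 to 77.6. The 4 globin genes measured had means under 1. Both single-library exceptions were in Control. Replicate 1 had an Xist value of 171, against 0.114 to 0.885 elsewhere, which goes against its label of male, and replicate 2 had a Lyz2 value of 11066, against 21.2 to 28.3 elsewhere. Cathepsin results are therefore also given without each of these libraries where it matters. Cripto itself (Tdgf1) was not analysed here, so the genotypes were not checked against the deleted gene.

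As a sum, cathepsin transcripts were abundant in both groups, and the summed shares of the groups overlapped. Not each gene was abundant: Ctse had 32 to 61 reads per sample. Together the 10 genes held 4.96% ± 0.398 (SD, n = 3) of all reads in Control MPs and 4.78% ± 0.113 (SD, n = 3) in Cripto KO MPs. The Control samples had 4.50%, 5.17% and 5.21%, and the Cripto KO samples 4.88%, 4.80% and 4.65%, so the KO range lay inside the Control range. Ctsb, Ctsd and Ctss took between 79.9% and 82.6% of the cathepsin reads of a sample. In bulk RNA, fewer cells of a type and less RNA per cell cannot be told apart.

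**Figure D1:**
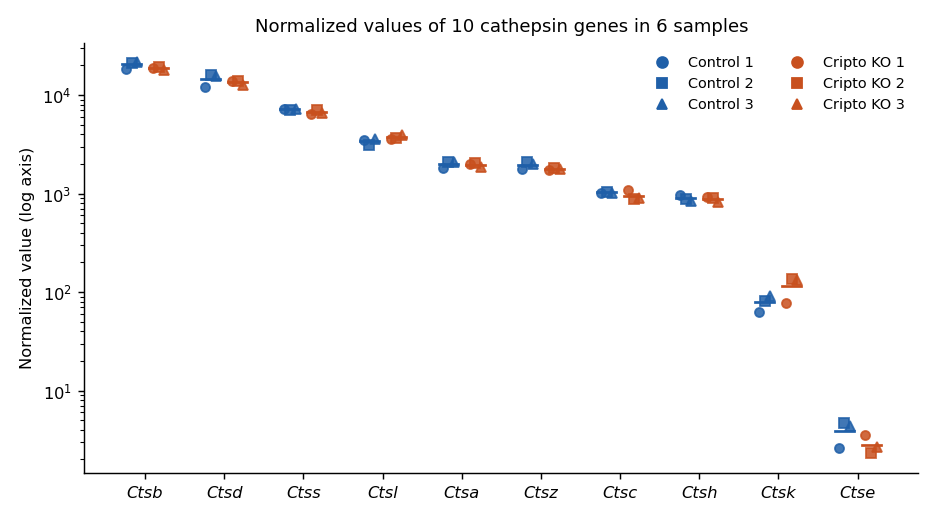
Normalized value (log axis) of each of the 10 cathepsins in 3 Control (blue) and 3 Cripto KO (orange) samples, with a bar at each group mean. Values run from 21555 for Ctsb down to 2.30 for Ctse, and the points of both groups overlap for all 10 genes.

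Because longer transcripts give more reads, genes were ranked by level per kb, which is the normalized value divided by the length of the longest coding transcript and scaled to 1000000 over 12998 genes with a known length. On this scale Ctsd, the main aspartic protease of the lysosome, came first of the cathepsins, with a mean level over 6 samples of 11904 (range 10043 to 13408). Ctss, an endopeptidase active at neutral pH that trims the invariant chain of MHC class II, followed at 9215 (8814 to 9546). Ctsb, a cysteine protease with both endopeptidase and carboxypeptidase activity, was next at 7476 (6906 to 8161). These 3 did not overlap in range and stood in this order in 6 of 6 samples. All were among the genes with the highest level per kb: Ctsd ranked 5 or 6, Ctss 6 or 7, and Ctsb between 9 and 13 of the 12998 genes, depending on the sample.

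A middle group followed. Ctsz, a carboxypeptidase, had a mean level of 2331 per kb (2207 to 2569). Ctsl, an endopeptidase of broad activity, had 1049 (912 to 1179), Ctsh, an aminopeptidase, 994 (941 to 1057), and Ctsa 981 (879 to 1035). The ranges of Ctsl and Ctsh overlapped, as did those of Ctsh and Ctsa, and each of these pairs kept its order in 4 of 6 samples, so these neighbours did not differ beyond their spread. Ctsc, a dipeptidyl peptidase that activates granule serine proteases, was lower than Ctsa in 6 of 6 samples, with a mean level of 557 per kb (482 to 629).

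At the low end, Ctsk, the collagen-cleaving protease best known from osteoclasts, ranged from 74.1 to 162 per kb with a mean level of 116. Ctse, an aspartic protease of endosomes in immune cells and of the stomach, ranged from 1.92 to 3.92 with a mean level of 2.85. Ctse was present at 32 to 61 reads per sample, above 3 reads in all 6 samples. The step from Ctsk to Ctse was the widest between neighbours, at 24.7 to 83.8 times within a sample.

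The order in the middle group depended on which transcript was taken to stand for a gene, most of all for Ctsl. Its longest coding transcript has 6168 bases, whereas the shortest of its principal transcripts has 1971 bases. With the shorter length the level of Ctsl was 2909 per kb (2536 to 3264), above that of Ctsz in 6 of 6 samples. With the median length of its coding transcripts, 834 bases, the level was 5235 and Ctsl came before Ctsb. Ctsa also moved with the median length, from 981 to 2511, above Ctsz at 1573 and Ctsh at 1442, and with the union of exons Ctsh was at 488, below Ctsa at 1036. Ctsd and Ctss kept the first and second place with each of these lengths. Ctsl also shares sequence with an overlapping gene model: 28.2% of its words of 31 bases occur in other genes, most of them (25.8%) in Gm47123. For Ctsd, 33.2% of such words occur in Gm49369. Neither gene model is a row of the table used here, so how their reads were assigned is uncertain and the levels of Ctsd and Ctsl are uncertain with it. For Ctsa and Ctsb the shares were 14.6% and 13%, mainly with their neighbours Pltp and Fdft1, and for the other 6 genes they were between 0% and 1.71%.

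**Figure D2:**
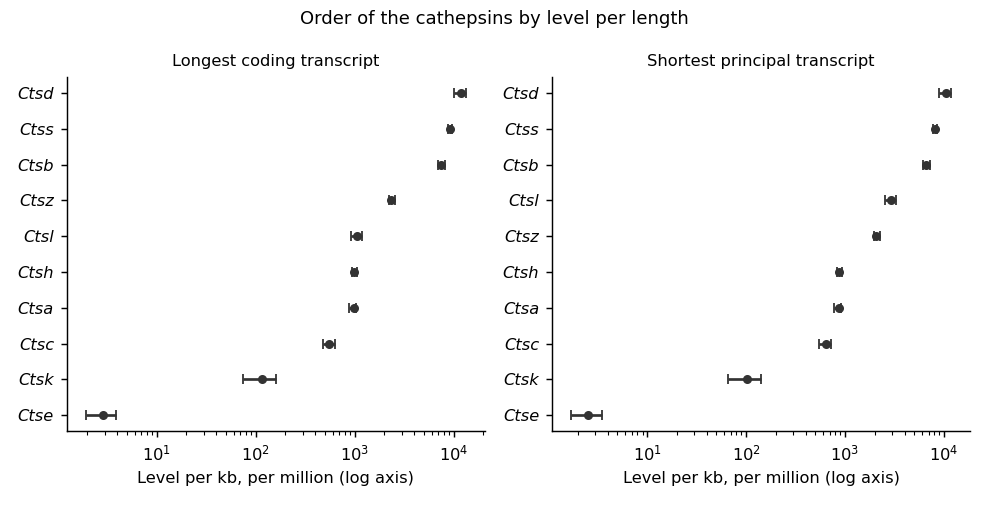
Level per kb (log axis) of the 10 cathepsins, as the mean (point) and range (bar) of 6 samples, with the length of the longest coding transcript (left) or of the shortest principal transcript (right). Ctsd, Ctss and Ctsb are the top 3 in both panels, and Ctsl moves from a mean of 1049, below Ctsz, to 2909, above it.

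Comparison of Control and Cripto KO MPs gave no cathepsin with an adjusted p-value under 0.05. In limma the count was 0 of 10, where 0.131% of all genes tested (17 of 13008) were called, and it was also 0 of 10 in edgeR (0.131% of all genes) and in DESeq2 (0.547% of all genes). Without adjustment, limma gave 1 of 10 (Ctsk) with a p-value under 0.05, where the share of all genes was 8.59%. In DESeq2 that number was 0 (5.84% of all genes), and in edgeR it was 1 (8.47% of all genes), again Ctsk. The groups overlapped for all 10 cathepsins, whereas 14.5% of all genes had groups that did not overlap. A positive log2 fold change here stands for a higher value in Control (Control over Cripto KO). The median of the 10 log2 fold changes was 0.10, beside 0.01 over all genes, and the median size irrespective of sign was 0.12 for the cathepsins and 0.12 for all genes. The estimate was above 0 for 8 cathepsins and below 0 for Ctsk and Ctsl, and 52.6% of all genes had an estimate above 0.

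**Figure D3:**
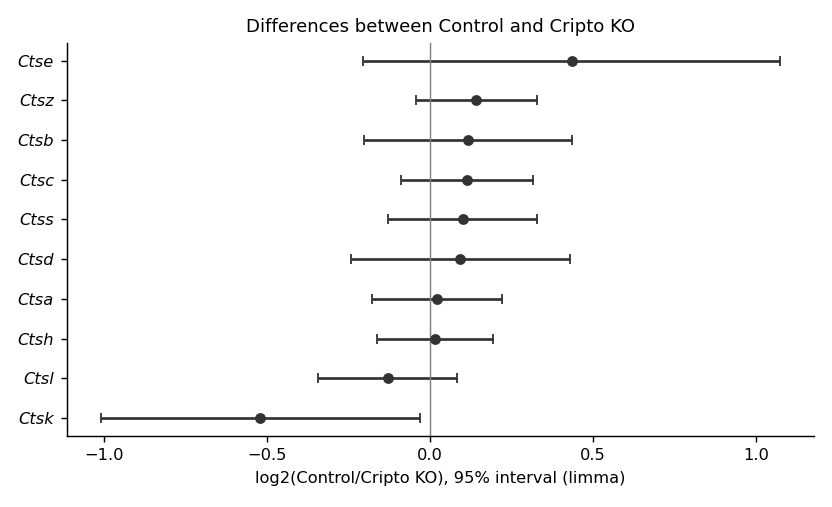
Difference of each cathepsin between Control and Cripto KO as log2(Control/Cripto KO), estimated with limma from 3 samples per group, with bars for the 95% interval. Only the interval of Ctsk, from -1.01 to -0.03, leaves out 0, and its p-value did not pass adjustment over all genes (adjusted p = 0.548).

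Of the aspartic proteases, Ctsd (ENSMUSG00000007891, chr7:142375911-142388038, minus strand, GRCm38) had normalized values of 12042, 15934 and 15577 in the Control samples and 13781, 13957 and 12807 in the KO samples. Control replicate 1 was the lowest and Control replicate 2 the highest of the 6 samples, with all KO samples between them. The means were 14518 ± 2152 and 13515 ± 619 (SD, n = 3), and the log2 fold change was 0.09 ± 0.15 (SE), with a 95% interval from -0.24 to 0.43 and an adjusted p of 0.896 in limma. Without Control replicate 1 the log2 fold change was 0.22, and without Control replicate 2 it was 0.02, with adjusted p-values of 0.552 and 0.986 in limma. Ctse (chr1:131638306-131675505, plus strand) had values of 2.61, 4.65 and 4.37 in the Control samples and 3.52, 2.30 and 2.65 in the KO samples. Control replicate 1 lay within the KO range, below KO replicates 1 and 3, and the log2 fold change was 0.43 ± 0.28 (SE), with an interval from -0.21 to 1.08 and an adjusted p of 0.712 in limma. Without Control replicate 1, the library with high Xist, it was 0.70, with an interval from 0.11 to 1.29 and an adjusted p of 0.412. Without Control replicate 2, the library with high Lyz2, it was 0.28, and over all left-out samples it ranged from 0.28 to 0.70.

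Among the cysteine endopeptidases, Ctsb (ENSMUSG00000021939, chr14:63122462-63145923, plus strand) had the highest normalized values of all 10 genes. They were 18463, 21335 and 21555 in the Control samples and 18927, 19352 and 18164 in the KO samples. As for Ctsd, Control replicates 2 and 3 stood above all KO samples, and Control replicate 1 did not. The log2 fold change was 0.12 ± 0.14 (SE), with an interval from -0.20 to 0.44 and an adjusted p of 0.853 in limma, and without Control replicate 1 it was 0.19. Ctss (chr3:95526786-95556403, plus strand) had values of 7192, 7061 and 7203 in the Control samples and 6405, 7084 and 6549 in the KO samples. The Control samples lay close together, and only KO replicate 2 reached into their range. Its log2 fold change was 0.10 ± 0.10 (SE), with an interval from -0.13 to 0.33 and an adjusted p of 0.817 in limma.

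Ctsl (chr13:64359337-64370890, minus strand) had an estimate below 0. Its values were 3518, 3143 and 3601 in the Control samples and 3595, 3689 and 3936 in the KO samples, with the lowest sample in Control and the highest in Cripto KO. The log2 fold change was -0.13 ± 0.09 (SE), with an interval from -0.34 to 0.08 and an adjusted p of 0.740 in limma, and without Control replicate 2 it was -0.07. For these 3 endopeptidases and for Ctsd, the interval left out a change of the size of 2-fold in either direction, which is 1 on the log2 scale.

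Ctsk (ENSMUSG00000028111, chr3:95499256-95509362, plus strand), which lies next to Ctss on chromosome 3, had the largest log2 fold change in size among the 10 genes over all 6 samples, but not without Control replicate 1 (Ctse 0.70, Ctsk -0.37) or without KO replicate 3 (Ctse 0.401, Ctsk -0.397). Control samples had 63.1, 81.9 and 91.2, and Cripto KO samples 76.6, 137 and 133. KO replicates 2 and 3 were above all Control samples, whereas KO replicate 1 lay inside the Control range. The means were 78.7 ± 14.3 and 115 ± 33.7 (SD, n = 3), and the log2 fold change was -0.52 ± 0.22 (SE), with an interval from -1.01 to -0.03. In limma its p was 0.040 before and 0.548 after adjustment. No single sample could be left out to give an adjusted p under 0.05. The log2 fold change was -0.79 without KO replicate 1 (adjusted p = 0.154 in limma), and -0.37 without either Control replicate 1 or KO replicate 2.

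Fibroblasts also express Ctsk, and their marker genes are given for that reason. The summed value of 10 fibroblast genes was 553 to 588 in Control and 659 to 707 in Cripto KO, so these sums did not overlap. All 10 had estimates toward Cripto KO, and limma gave 6 with an unadjusted p under 0.05 (8.59% of all genes) and 0 with an adjusted p under 0.05 (0.131% of all genes). The groups overlapped for 5 of the 10, and 14.5% of all genes had groups that did not overlap. Col1a1, the most abundant of them, had means of 195 ± 5.64 and 231 ± 11.1 (SD, n = 3), and the fibroblast receptor Pdgfra 0.555 ± 0.145 and 1.14 ± 0.0960. KO replicate 1, in which Ctsk was 76.6, had a fibroblast sum of 684, between those of the other KO samples (707 and 659). Muscle fiber genes (9 of 10 measured) summed to 37.5 to 82.8 in Control and 14.1 to 55.5 in Cripto KO. Of these 9 genes 8 had estimates toward Control, the median over the 9 was 1.36 on the log2 scale (0.01 over all genes), and limma gave 7 with an unadjusted and 0 with an adjusted p under 0.05. Neither cell type belongs to the GFP+, F4/80+ and Ly6C-Low gate of the sort. The part of such RNA in the Ctsk values was not tested.

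The exopeptidases had values between those of Ctsl and Ctsk. Ctsz (chr2:174427493-174439039, minus strand) had values of 1792, 2068 and 1999 in the Control samples and of 1721, 1823 and 1758 in the KO samples. Only Control replicate 1 fell within the KO range. Its log2 fold change was 0.14 ± 0.08 (SE), with an interval from -0.04 to 0.33 and an adjusted p of 0.690 in limma. Without Control replicate 1 the log2 fold change was 0.20 (unadjusted p = 0.023, adjusted p = 0.401 in limma). Without Control replicate 2 it was 0.10 (unadjusted p = 0.313, adjusted p = 0.821 in limma).

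Ctsc (chr7:88278085-88310888, plus strand) had values of 1019, 1043 and 1023 in the Control samples and of 1085, 876 and 902 in the KO samples. KO replicate 1 was the highest of all 6 samples and the other KO samples the lowest, whereas for Ctsk KO replicate 1 was the lowest of the KO samples. The log2 fold change was 0.11 ± 0.09 (SE), with an interval from -0.09 to 0.32 and an adjusted p of 0.764 in limma, and it was 0.21 without KO replicate 1 (adjusted p = 0.607) and 0.055 without KO replicate 2 (adjusted p = 0.907). Ctsh (chr9:90054152-90076089, plus strand) had values of 964, 871 and 848 in the Control samples and of 917, 911 and 827 in the KO samples, and the groups overlapped over most of their range. Its log2 fold change was 0.01 ± 0.08 (SE), with an interval from -0.16 to 0.19.

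Ctsa (chr2:164832873-164841032, plus strand), which besides cutting peptides holds β-galactosidase and neuraminidase together in a lysosomal complex, had values of 1806, 2108 and 2074 in the Control samples and of 1979, 2046 and 1865 in the KO samples. All KO samples lay between the lowest and the highest Control sample. The log2 fold change was 0.02 ± 0.09 (SE), with an interval from -0.18 to 0.22. Ctsa and Ctsh had the largest adjusted p-values of the 10, at 0.965 and 0.974 in limma.

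In Control the median spread of the cathepsins between replicates was close to that of all genes with a mean value of at least 10. In Cripto KO it was lower. The median coefficient of variation (CV, the SD as a percent of the mean) of the 10 genes was 7.81% in Control and 5.04% in Cripto KO. Over the 7730 genes with a mean value of at least 10 the medians were 7.81% and 6.99%, and over all genes 11.0% and 9.92%. In Control, Ctss and Ctsc had CVs of 1.11% and 1.24%, at percentiles 1.42 and 1.75 among the genes with a mean of at least 10. In Cripto KO the same genes had CVs of 5.35% and 11.9%. Ctsd went the other way, with 14.8% in Control (percentile 84.5) and 4.58% in Cripto KO (percentile 27.1). Ctsk had 18.2% and 29.2%, at percentiles 91.2 and 98.8. The CVs of Ctse, 28.5% and 22.3%, rest on few reads. With 3 values per CV these differences between groups were not tested.

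**Figure D4:**
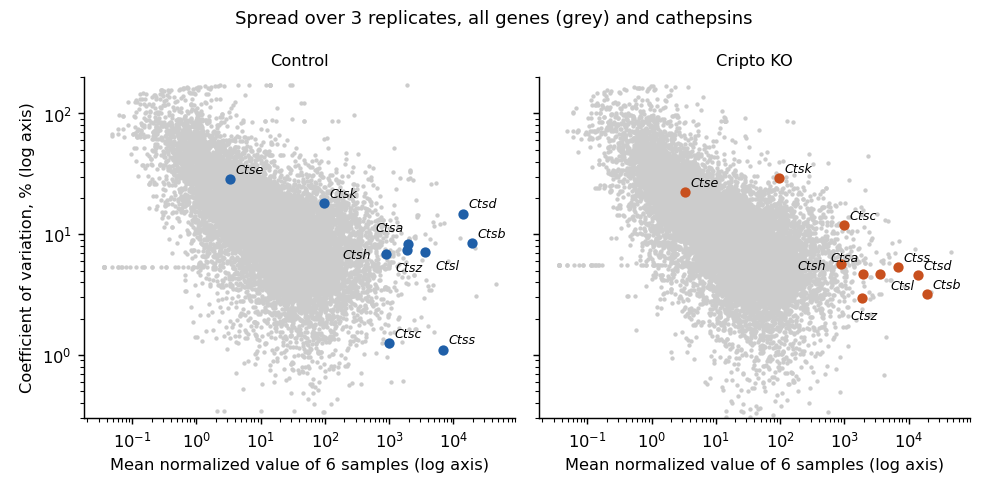
Coefficient of variation over 3 replicates (log axis) against the mean normalized value of 6 samples (log axis) for all genes (grey) and the 10 cathepsins, in Control (left) and Cripto KO (right). Ctss and Ctsc sit at 1.11% and 1.24% in Control and at 5.35% and 11.9% in Cripto KO, and Ctsk lies at the upper edge of genes of its level in Cripto KO.

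Across the 6 samples some cathepsins moved together. Pearson's r of log2 values was 0.96 for Ctsa and Ctsd, 0.94 for Ctsb and Ctsd and 0.93 for Ctsb and Ctsz, and these were the only 3 of 45 pairs above 0.9. The median over all pairs was 0.14. For Ctsa and Ctsd, Control replicate 1 was the lowest and Control replicate 2 the highest of the 6 samples, and for Ctsb, Control replicate 3 was the highest and KO replicate 3 the lowest. The opposite pattern was strongest for Ctsc and Ctsk, with r = -0.88. These coefficients describe 6 libraries that share their depth and scaling, and they were not tested.

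**Figure D5:**
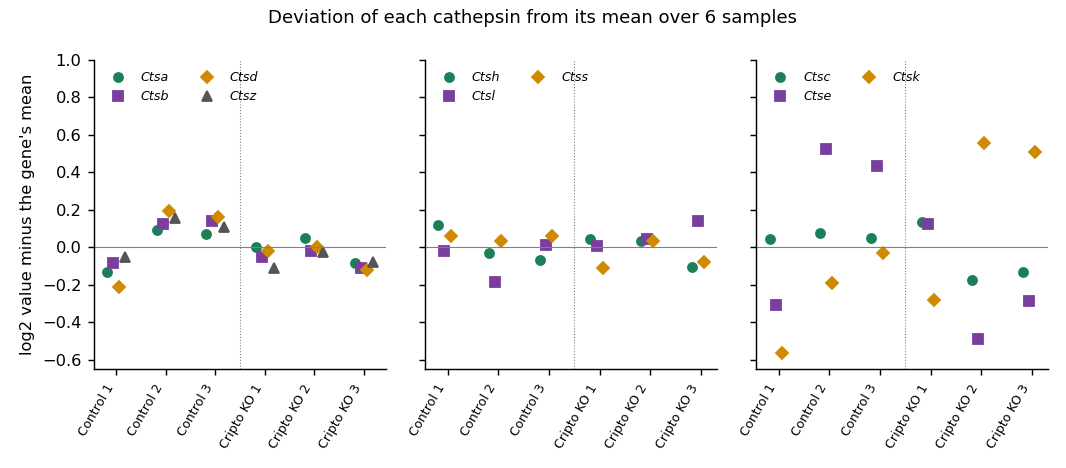
Deviation of log2 values of each cathepsin from its own mean over 6 samples, by sample, in 3 panels of genes. Ctsa, Ctsb, Ctsd and Ctsz lie below their means in Control replicate 1 and above them in Control replicates 2 and 3, and Ctsk and Ctsc take opposite places in the 3 Cripto KO samples.

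For the 3 cathepsins with the highest level per kb, the genes with the most similar pattern were named from 7730 genes with a mean value of at least 10, by Pearson's r over the 6 samples. For Ctsd these were Galns, a lysosomal sulfatase (r = 0.998), Amdhd2 (0.992) and Hadha (0.991). For Ctsb they were Ppt1, a lysosomal thioesterase (0.995), Timp2, an inhibitor of metalloproteinases (0.992), and Lamp1, a major protein of the lysosomal membrane (0.991). For Ctss they were Zkscan3 (0.996), Gpbp1l1 (0.992) and Tsc22d2 (0.991). In all, 191, 185 and 188 of the 7730 genes had an r above 0.9 with Ctsd, Ctsb and Ctss. The named genes have the highest r of 7730 over only 6 samples, so their values are high by selection, and they were not tested.

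Other genes of the cathepsin pathway were read from 7 lists with 90 genes, of which 66 were in the table. In limma 1 of the 66 (Mmp9) had an adjusted p under 0.05, where 0.131% of all genes did, and 5 had an unadjusted p under 0.05 (8.59% of all genes), of which 4 were higher in Control. The groups did not overlap for 12 of the 66 (14.5% of all genes), so both of the latter counts lie near the share of all genes. The median log2 fold change of the 66 genes was 0.02. Of other cathepsins and lysosomal peptidases, 9 of 20 were measured and 0 were called. Among them Lgmn, the asparaginyl endopeptidase that processes several cathepsins, lay between 3528 and 3891, Ctso between 52.9 and 58.5 and Ctsf between 24.8 and 37.5. The smallest p-values in that list were those of the carboxypeptidases Prcp (234.6 ± 12.3 in Control and 197 ± 11.7 in Cripto KO, log2 fold change 0.25, adjusted p = 0.420 in limma) and Cpq (63.3 ± 3.76 and 55.0 ± 6.26, log2 fold change 0.21, adjusted p = 0.598).

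Cathepsin inhibitors had 6 of 15 genes measured and 0 called. Cst3, the secreted inhibitor cystatin C, ranged from 1790.0 to 2240.4. Serpinb6a, a cytosolic serpin, had 457, 478 and 495 in the Control samples and 406, 415 and 412 in the KO samples (log2 fold change 0.21, adjusted p = 0.420 in limma), and Cst7, cystatin F, had means of 1.97 ± 0.309 and 1.27 ± 0.119 (log2 fold change 0.63, adjusted p = 0.584). These were the 2 of the 6 whose groups did not overlap (14.5% of all genes), and Cst7 had at most 28 reads in a sample. All 15 genes of cathepsin sorting and processing were measured and 0 were called. Psap, the precursor of saposins, ranged from 20265 to 23301, while Cln8, which ferries lysosomal enzymes out of the endoplasmic reticulum, differed by 0.20 on the log2 scale, higher in Control (adjusted p = 0.494 in limma).

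The 3 genes of the cathepsin A complex were measured and 0 were called. Glb1, β-galactosidase, reached 92.4 in Control replicate 1, with the other 5 samples at 42.4 to 51.4 (adjusted p = 0.625 in limma), and Galns was 129 ± 25.5 in Control and 116 ± 7.55 in Cripto KO (adjusted p = 0.812). Of the regulators of lysosomal genes 13 of 13 were measured and 0 called. Tfeb, the factor that binds the E-box, had means of 61.0 ± 1.46 and 62.4 ± 3.45, and the smallest p-values were those of the related factor Mitf (log2 fold change -0.19, adjusted p = 0.603 in limma) and the lysosomal calcium channel Mcoln1 (-0.13, adjusted p = 0.659). For class II antigen presentation 10 of 11 genes were measured and 0 called, led by the thiol reductase Ifi30 (0.10, adjusted p = 0.768) and the peptide exchange factor H2-DMa (0.09, adjusted p = 0.835).

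Among osteoclast genes, where Ctsk also belongs, 10 of 13 were measured and 1 was called. Mmp9, a gelatinase, had 15.2, 22.4 and 21.9 in the Control samples against 39.3, 45.6 and 41.5 in the KO samples, and each KO value was above each Control value. Its log2 fold change was -1.10 ± 0.15 (SE), with an adjusted p of 0.031 in limma. The call was lost, at adjusted p-values of 0.083 to 0.223, without Control replicate 3 (0.113) or any 1 of the KO samples. Tnfrsf11a, the receptor of RANKL, was 41.3 ± 4.05 in Control and 47.0 ± 1.75 in Cripto KO (adjusted p = 0.616 in limma). Acp5, the tartrate-resistant acid phosphatase, was 343 ± 34.8 and 384 ± 11.2 (adjusted p = 0.625). These 3 were the only ones of the 10 whose groups did not overlap (14.5% of all genes). Of the 10, 7 had estimates toward Cripto KO and 3 toward Control. The median log2 fold change of the 10 was -0.05 (0.01 over all genes). Whether Mmp9 and Ctsk differed by unequal amounts was not tested.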

How the data were processed

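RNA-seq libraries of 3 Control and 3 Cripto KO samples were prepared from sorted MPs. Per the labels and the study's methods, the authors trimmed reads with Cutadapt (version 1.7.1, reads under 30 bp discarded), quantified them on the mouse transcriptome (GRCm38, Ensembl release 91) with RSEM (version 1.2.20) and normalized them with limma. The authors deposited a normalized signal per gene and sample, equal to reads plus a constant over a scaled library size, so that no value was 0. Whole reads were recovered from 100.0% of 78048 values, within 0.01 read. All 6 sample columns were used, and 0 were left out.

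Groups were compared on log2 values without a pseudocount with limma (version 3.58.1, R 4.3.3) with a variance trend, two-sided, with Benjamini-Hochberg adjustment over 13008 genes. The same reads were tested with the edgeR quasi-likelihood test (version 4.0.16) and DESeq2 (version 1.42.0). Other settings were a pseudocount (0.5 or 1), a filter on a mean of at least 1, median centring, quantile normalization, other eBayes options, voom weights, replicate blocks, other transcript lengths, and leaving out each sample. Lengths and positions came from GENCODE mouse release M21, and promoters from RefSeq. Named were the 10 cathepsins, each called gene of a pathway list or, where fewer than 2 were called, its 2 genes with the smallest p, and the most similar genes of the top 3 cathepsins. Other genes given with values were taken from the lists after their values were seen. They were Csf1r, Adgre1, Cd68, Cx3cr1, Lgmn, Ctso, Ctsf, Cst3, Psap, Tfeb, Acp5, Col1a1 and Pdgfra. Some genes of the lists are not reported here by name. The members and the lists were chosen with earlier results of these data known. The fits were tested on simulated data with 200 changed genes. At an adjusted p under 0.05, limma recovered 27.5% of genes changed 1.5-fold, 79% of those changed 2-fold and 98.5% of those changed 4-fold. False calls numbered 5, 12 and 13. Python 3.11.15 was used with numpy 2.4.6, pandas 2.3.3 and matplotlib 3.10.9.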

Additional observations from a re-analysis of the deposited data

How the results depend on the processing

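The number of cathepsins with an adjusted p under 0.05 was 0 in each of 18 alternatives, including a replicate block, and the adjusted p of Ctsk ranged from 0.154 to 0.893 over them. Of 180 cathepsin log2 fold changes under those alternatives, 174 were counted as keeping their direction and 6 changed it, all of these 6 near 0. They were Ctsa without Control replicate 2, Control replicate 3 or KO replicate 3 (range over left-out samples -0.020 to 0.092), and Ctsh without Control replicate 1 or KO replicate 3 (-0.040 to 0.052) and with quantile normalization (-0.0043). Counted among the 174 was Ctsd with quantile normalization, whose log2 fold change of 1.5e-15 has in effect no direction. The number of all genes called, 17, became 71 with DESeq2, 31 with robust eBayes, 9 with voom weights, 6 with quantile normalization, 5 with eBayes without a trend, and between 5 and 31 with a sample left out. With a replicate block it was 2 by the numbers in the labels and 11 by those of the study's data set, an alternative added after seeing the data. Deviations of same-numbered samples had r = -0.495, -0.0496 and -0.244 by the labels and 0.435, 0.364 and -0.282 by the study's data set, so neither numbering pairs the samples in all 3 cases. Mmp9, the 1 pathway gene called, was lost (0 called) with quantile normalization, with eBayes without a trend and with the block, and the count was between 0 and 1 with a sample left out. The summed level of the 10 cathepsins was 34625 per kb, 41910.0 with the union of exons and 31026 with the median coding length. The 95% intervals of Ctsk and Ctse reach past a 2-fold change, and Ctse rests on 32 to 61 reads per sample. The causes of these changes were not tested.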
